A study of Mus musculus with 9 samples.

Results

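Heat shock proteins and other molecular chaperones were examined in mouse haematopoietic stem and progenitor cells that carried DNMT3A R882H, wild-type DNMT3A or an empty vector. The set was a list of 37 genes chosen by name: HSP70, HSP110 and HSP90 proteins, small heat shock protein genes, J proteins, cochaperones, chaperonins and the heat shock factors Hsf1 and Hsf2. A probe was matched through its RefSeq accession for 36 of the 37, and 35 were among the 13120 genes of the series that could be tested. A gene was tested where its brightest probe passed the scanner's call of being well above background on every array of 1 or more groups. Of the 35 members tested, 34 were well above background on all 9 arrays, and the other one, Hspa1a, entered through the R882H group. Hspa1b, the near-identical neighbour of Hspa1a, had no matched probe here. Hspb1, the small heat shock protein HSP25, was well above background on 1 of 3 R882H arrays, 2 of 3 WT arrays and 1 of 3 EV arrays, and was not tested.

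The cells were LSK cells, lineage-negative bone marrow cells with Sca-1 and Kit on their surface, a fraction that contains stem cells and multipotent progenitors. Per the labels, R882H cells had been transduced with DNMT3A R882H, WT cells with wild-type DNMT3A and EV cells with the empty vector, and each group had 3 arrays. All vectors were labelled with GFP, and all cells were C57BL/6 cells recovered by sorting from transplanted mice, so the EV cells share the transduction, the transplantation and the sort. DNMT3A is a methyltransferase that sets new DNA methylation, and R882H is its recurrent substitution in myeloid leukaemia. The sources used here give no age of the mice, no promoter of the vector and no number of animals per sample, and both DNMT3A forms were added to cells that keep their own Dnmt3a. Nothing says that replicates came from separate animals, so p-values measure only how these samples vary, and that variation may be technical.

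Chaperones bind proteins that are not yet folded or have lost their fold. J proteins deliver such clients to HSP70, nucleotide exchange factors release them, HSP90 with its cochaperones completes the folding of kinases and receptors, and the ring-shaped chaperonins enclose whole chains, CCT in the cytosol and HSP60 in mitochondria. Heat shock factor 1 raises the cytosolic members when unfolded proteins accumulate, the unfolded protein response does so for the endoplasmic reticulum (ER), and haematopoietic stem cells are known for a tight control of protein synthesis and folding.

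Each array carried 55681 probes that were not controls, from amplification of 3.67 ng of RNA, and 53.4% to 64.8% of them were well above background. All 3 EV arrays and WT replicate 1 lay on slide 1, WT replicates 2 and 3 and R882H replicates 1 and 2 on slide 2, and R882H replicate 3 alone on slide 3. No slide held both R882H and EV arrays. In the authors' deposited value table, 2 of 9 columns matched the array of their own sample, and 7 matched a different sample's array, 4 of them that of another group. Groups here follow the labels of the scanner files, and the values under the table's own column names are given beside the main results. The 5 sort and progenitor markers Kit, Ly6a, Cd34, Flt3 and Slamf1 were all tested. All 5 were higher in R882H than in EV cells, with a median of 0.24, and 4 of 5 were higher in R882H than in WT cells, with a median of 0.11. None passed an adjusted p of 0.05 in limma, nor did any gene of the table. Of the T lineage markers, Cd3d, Cd3g and Cd8a failed that detection rule in all 3 groups. The mouse Dnmt3a probe read 1.70, 1.48 and 1.12 on the R882H arrays, 1.45, 1.84 and 0.49 on the WT arrays and 1.18, 1.48 and 0.56 on the EV arrays, in log2 units above the 75th percentile of the array, the scale of all levels given here. These groups overlap.

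Promoters of 5 members are shown because they carry the sequence signals through which chaperone genes are known to be induced, or belong to Tcp1 and Dnajb1, which are among the members of smallest p. RefSeq windows of build GRCm38.p6, 250 bases before to 50 bases after the start of transcription, were matched for 31 of the 37 members. Hspa8, Hspa9, Hsp90aa1, Hsp90ab1, Cct4 and Hsf1 had no window and were not searched. The heat shock element was searched as GAANNTTCNNGAA on either strand. Looser forms were not searched, so windows without this exact pattern, such as those of Hspa1a, Hspa1b and Dnajb1, may still hold one. The exact pattern was found in 0.603% of all 32851 windows and in 7 of the 41 windows of members, which belong to Chordc1, Dnajb6, Hspd1, Hspe1 and Hsph1. Counted by gene, it was found for 5 of the 31 members with a window, against 0.662% of all genes. Windows of Dnajb6, of Hsph1 and of the pair Hspd1 and Hspe1 overlap, so the 7 windows hold fewer separate stretches. The ER stress element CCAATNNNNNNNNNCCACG was found in 0.119% of all windows and, among members, in those of Hsp90b1 and Hspa5. The CCAAT box, which is also the first part of the ER stress element, was found in 37.4% of all windows and in 18 of the 41 windows of members. Capitals mark the matches, on either strand. In Hspe1 and Chordc1 they are overlapping heat shock elements, in Hsp90b1 a pair of ER stress elements on opposite strands, and in Tcp1 and Dnajb1 CCAAT boxes.
Hspe1, chr1:55087898-55088197, plus strand: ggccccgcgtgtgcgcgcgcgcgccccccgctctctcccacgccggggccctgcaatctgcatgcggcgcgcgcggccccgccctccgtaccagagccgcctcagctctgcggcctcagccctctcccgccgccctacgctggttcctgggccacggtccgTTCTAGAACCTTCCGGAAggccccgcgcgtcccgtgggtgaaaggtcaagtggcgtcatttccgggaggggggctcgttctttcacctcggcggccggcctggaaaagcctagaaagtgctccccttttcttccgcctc
Chordc1, chr9:18292017-18292316, plus strand: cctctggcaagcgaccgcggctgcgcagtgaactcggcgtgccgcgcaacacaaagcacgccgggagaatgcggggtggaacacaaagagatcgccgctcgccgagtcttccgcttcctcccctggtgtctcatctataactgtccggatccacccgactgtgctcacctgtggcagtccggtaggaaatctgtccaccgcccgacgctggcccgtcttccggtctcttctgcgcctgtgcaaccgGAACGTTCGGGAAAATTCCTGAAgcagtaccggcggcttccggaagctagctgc
Hsp90b1, chr10:86705395-86705694, minus strand: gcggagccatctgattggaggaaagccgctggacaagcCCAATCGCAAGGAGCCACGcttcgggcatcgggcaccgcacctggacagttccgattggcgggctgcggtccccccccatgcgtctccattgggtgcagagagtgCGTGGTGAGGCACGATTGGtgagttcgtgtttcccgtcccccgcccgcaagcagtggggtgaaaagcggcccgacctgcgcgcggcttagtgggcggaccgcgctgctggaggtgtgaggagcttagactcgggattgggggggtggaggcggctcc
Tcp1, chr17:12916079-12916378, plus strand: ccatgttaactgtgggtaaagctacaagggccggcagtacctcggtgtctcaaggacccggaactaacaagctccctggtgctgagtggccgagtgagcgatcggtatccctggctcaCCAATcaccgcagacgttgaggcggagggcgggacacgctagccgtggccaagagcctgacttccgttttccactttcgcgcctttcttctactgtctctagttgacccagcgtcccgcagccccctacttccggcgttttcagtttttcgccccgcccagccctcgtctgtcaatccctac
Dnajb1, chr8:83607925-83608224, plus strand: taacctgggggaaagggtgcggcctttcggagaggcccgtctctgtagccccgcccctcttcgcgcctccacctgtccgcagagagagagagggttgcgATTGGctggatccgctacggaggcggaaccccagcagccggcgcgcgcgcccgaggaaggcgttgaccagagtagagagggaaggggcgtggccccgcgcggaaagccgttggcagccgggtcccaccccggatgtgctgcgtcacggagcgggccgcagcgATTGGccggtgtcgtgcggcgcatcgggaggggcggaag
The Hspe1 window and a window of Hspd1 share 285 of 300 bases on opposite strands, so the matrix chaperonin HSP60 and its cochaperonin HSP10 start from 1 shared stretch of chromosome 1. A match is a description of the letters and not evidence of binding, and Dnajb1 has 2 annotated windows, of which the first is shown.

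R882H cells were set against EV cells to ask how the mutant enzyme changes LSK cells relative to the vector alone. Most chaperone genes read lower in R882H cells, by small amounts. Of the 35 members, 30 were lower and 5 higher, where 53.2% of all genes tested were lower. The median difference was -0.28 on the log2 scale, against -0.03 over all genes tested. All 7 CCT chaperonin subunits and all 4 mitochondrial chaperones on the list were lower, while both heat shock factors were higher by 0.03 and 0.23. No member passed an adjusted p of 0.05 in limma, and no gene did over the whole table (0%). By unadjusted p under 0.05, 5 members were lower and 0 higher, against 3.77% of all genes lower and 5.37% higher. That count was 2 without R882H replicate 1 or 2, 3 without WT replicate 1, EV replicate 1 or EV replicate 3, and 1 with slide as a block, and without R882H replicate 2 the median was -0.16.

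Chaperone probes are bright, and bright probes read lower in R882H cells as a class. With the genes tested cut into 5 classes of equal size by mean signal, the brightest class held 24 of the 35 members, and 69.6% of all genes of that class were lower in R882H than in EV cells. All 24 members there were lower, with a median difference of -0.29 against -0.13 for the whole class. Cyclic loess, which levels signal-dependent shifts between arrays, gave a member median of -0.17, with 28 of 35 lower. No R882H array overlapped any EV array for 11 members, all of them lower, where 9.38% of all genes tested were lower without overlap. In the brightest class this held for 9 of the 24 members and 18% of all its genes. Under the column names of the authors' deposited table, the member median was -0.07, with 26 of 35 lower, and the differences of Tcp1, Cct4 and Hspd1 were -0.17, -0.31 and -0.10.

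**Figure D1:**
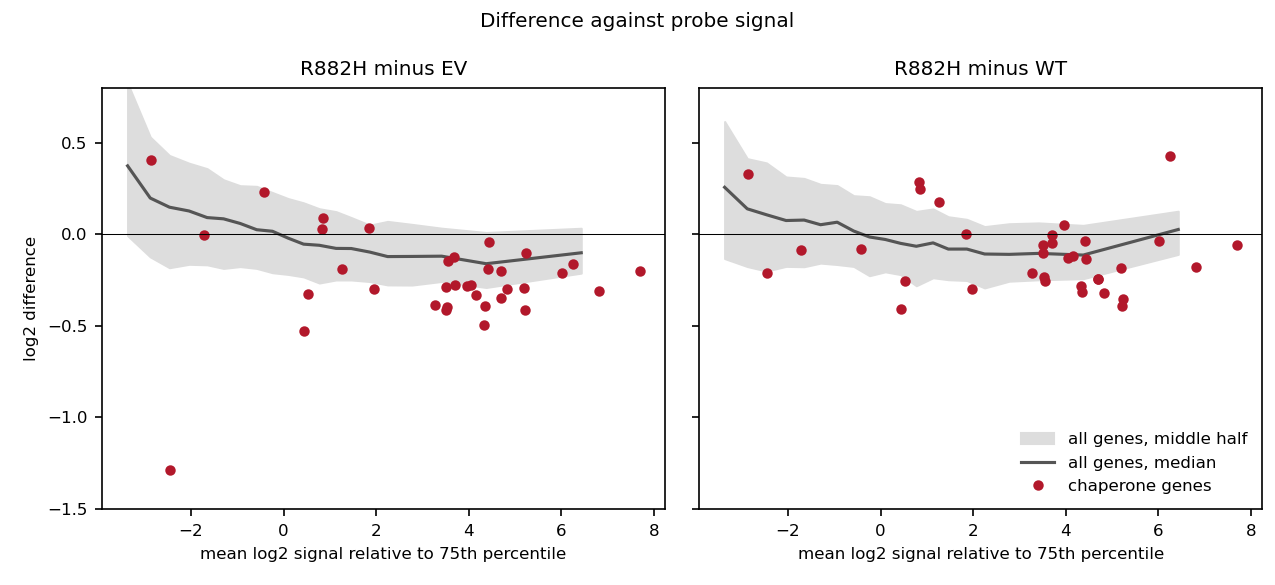
Difference of each chaperone gene (red points, 35 members) against its mean signal over the 9 arrays, for R882H minus EV (left) and R882H minus WT (right); the line and band are the median and the middle 50% of all genes tested, in 20 bins of signal. In the left panel the median line of all genes lies below 0 at high signal while the upper edge of the band stays above 0, and the members' median of -0.28 lies under the -0.13 of the brightest class of genes.

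The CCT chaperonin, the ring-shaped complex that folds actin and tubulin, was lower in R882H cells for each of the 7 subunits on the list. Tcp1, the alpha subunit, read 4.01, 4.02 and 4.16 on the R882H arrays and 4.60, 4.44 and 4.64 on the EV arrays. Every R882H array lay below every EV array. The difference was -0.50 ± 0.16 (SE), or 70.8% of EV signal, with a limma adjusted p of 0.527. Cct4, the delta subunit, read 3.26, 3.27 and 3.50 in R882H cells and 3.71, 3.80 and 3.77 in EV cells, again without overlap. Its difference was -0.42 ± 0.14 (SE), with a limma adjusted p of 0.527. Cct5, the epsilon subunit, read 4.59, 4.59 and 4.71 in R882H cells against 4.89, 4.84 and 5.05 in EV cells. Cct2 also had no overlap between the groups, whereas Cct3, Cct7 and Cct8 overlapped. The 7 differences ran from -0.50 to -0.28, with a median of -0.33. That median was -0.29 with cyclic loess and -0.14 under the authors' column names. It was -0.34 with slide as a block, which gives R882H replicate 3 no weight and rests on WT replicate 1.

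The mitochondrial chaperones lay lower in R882H cells by a similar amount, with a median of -0.35 over 4 members. Hspd1 encodes HSP60, the matrix chaperonin. It read 4.02, 4.0 and 4.31 in R882H cells and 4.51, 4.33 and 4.66 in EV cells, so the groups came close but did not overlap. The difference was -0.39 ± 0.16 (SE), with a limma adjusted p of 0.531. Hspe1 encodes HSP10, the lid of HSP60, and shares the promoter stretch shown above. It averaged 6.66 ± 0.13 in R882H cells and 6.97 ± 0.11 in EV cells (SD, n = 3 each), also without overlap. Hspa9, the mitochondrial HSP70, averaged 3.40 ± 0.17 in R882H cells and 3.68 ± 0.07 in EV cells (SD, n = 3 each). Trap1, the mitochondrial HSP90, read -0.25, 0.08 and 0.55 in R882H cells and 0.64, 0.59 and 0.72 in EV cells, and R882H replicate 3 came nearest to the EV arrays. The mitochondrial median was -0.09 under the authors' column names. It was -0.56 with slide as a block, which gives R882H replicate 3 no weight and rests on WT replicate 1.

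Cytosolic HSP70 and HSP110 proteins did not share 1 pattern. Hspa4l, an HSP110 relative that exchanges nucleotide on HSP70, had the largest difference of the 35 members. It read -3.49, -2.70 and -2.66 in R882H cells and -2.32, -0.88 and -1.78 in EV cells. The probe is dim, in the lowest class of signal, and EV replicate 2 stood highest. The difference was -1.29 ± 0.40 (SE), with a limma p of 0.0103 and an adjusted p of 0.515, and it was -0.90 without EV replicate 2 and -0.68 with slide as a block. Hspa8, the constitutive HSC70, read 5.89, 5.77 and 6.16 in R882H cells and 6.20, 6.02 and 6.23 in EV cells, which overlap. Hsph1, the inducible HSP110, read 4.71, 3.88 and 4.51 in R882H cells and 4.34, 4.24 and 4.66 in EV cells, and its difference of -0.04 ± 0.24 (SE) was within the spread and turned to 0.20 without R882H replicate 2. Hspa4 averaged 3.65 ± 0.05 in R882H cells and 3.77 ± 0.05 in EV cells (SD, n = 3 each) without overlap, but 1 of its 2 other probes differed the opposite way.

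The stress-inducible HSP70 was near the limit of detection. Hspa1a read -2.86, -3.14 and -1.84 in R882H cells, -3.76, -0.07 and -5.00 in WT cells and -2.37, -4.59 and -2.09 in EV cells. WT replicate 2 stood above all other arrays, and the remaining values spread widely in every group. The R882H minus EV difference was 0.41 with an SE of 1.17, and ran between -0.38 without EV replicate 2 and 0.87 without EV replicate 3 when single arrays were left out. Its probe was well above background on 3 of 3 R882H arrays, 1 of 3 WT arrays and 2 of 3 EV arrays. Hspa1b encodes an almost identical transcript, and how far it binds this probe was not tested.

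In the ER, 3 of 4 members were lower, with a median of -0.30. Hspa5 encodes BiP, the ER HSP70. It read 4.59, 4.34 and 4.71 in R882H cells and 4.83, 4.39 and 5.03 in EV cells, and replicate 2 was the lowest of its group in both. The difference was -0.20 ± 0.20 (SE), and it was -0.06 without EV replicate 3, -0.10 without R882H replicate 2 and -0.38 without EV replicate 2. Hsp90b1 encodes GRP94, the ER HSP90, and its promoter is the one shown with ER stress elements. It averaged 4.96 ± 0.25 in R882H cells and 5.37 ± 0.38 in EV cells (SD, n = 3 each). Dnajb11, a J protein of BiP, averaged 3.32 ± 0.23 in R882H cells and 3.71 ± 0.42 in EV cells (SD, n = 3 each). Dnajb9, another one, averaged 0.93 ± 0.16 in R882H cells and 0.90 ± 0.38 in EV cells (SD, n = 3 each). All 4 overlapped between the groups.

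The cytosolic HSP90 genes differed little from EV cells. Hsp90aa1, the inducible form, read 5.08, 5.13 and 5.05 in R882H cells and 5.13, 5.22 and 5.23 in EV cells, a difference of -0.10 ± 0.14 (SE) that turned to 0.03 with quantile normalization and 0.01 with cyclic loess. Hsp90ab1, the constitutive form, read 7.51, 7.46 and 7.84 in R882H cells and 7.92, 7.62 and 7.87 in EV cells, with overlap and a difference of -0.20 ± 0.17 (SE), which was -0.32 without R882H replicate 3 and -0.13 without R882H replicate 2. All 5 cochaperones were lower, with a median of -0.28 and overlap in each. They are Stip1 (which bridges HSP70 and HSP90), Ahsa1 (an activator of the HSP90 ATPase), Fkbp4, Chordc1 and Bag3. Bag3, a nucleotide exchange factor of HSP70 that is linked to autophagy, read 0.99, 1.37 and 1.40 in R882H cells and 1.35, 1.06 and 1.93 in EV cells, and without EV replicate 3 its difference of -0.19 became 0.05.

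Of the 6 J proteins of the cytosol and nucleus, 5 were lower and the differences ran from -0.33 to 0.09. Dnaja2 was the one without overlap, averaging 4.0 ± 0.16 in R882H cells and 4.33 ± 0.08 in EV cells (SD, n = 3 each). Dnajb1, the main stress-inducible J partner of HSP70, read 6.48, 6.20 and 6.34 in R882H cells and 6.62, 6.58 and 6.32 in EV cells, with a difference of -0.16 ± 0.15 (SE), which was -0.26 without EV replicate 3, -0.11 without EV replicate 1 and -0.09 without R882H replicate 2. A second probe of Dnaja1 and 1 of 3 further probes of Dnajb6 differed the opposite way. The transcription factors themselves overlapped. Hsf1 read 1.54, 1.95 and 2.11 in R882H cells and 2.03, 1.51 and 1.95 in EV cells, and Hsf2 averaged -0.38 ± 0.29 in R882H cells and -0.61 ± 0.76 in EV cells (SD, n = 3 each). The small difference of Hsf1, 0.03 ± 0.22 (SE), was -0.12 with the array median as the scale and -0.13 without EV replicate 2.

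**Figure D2:**
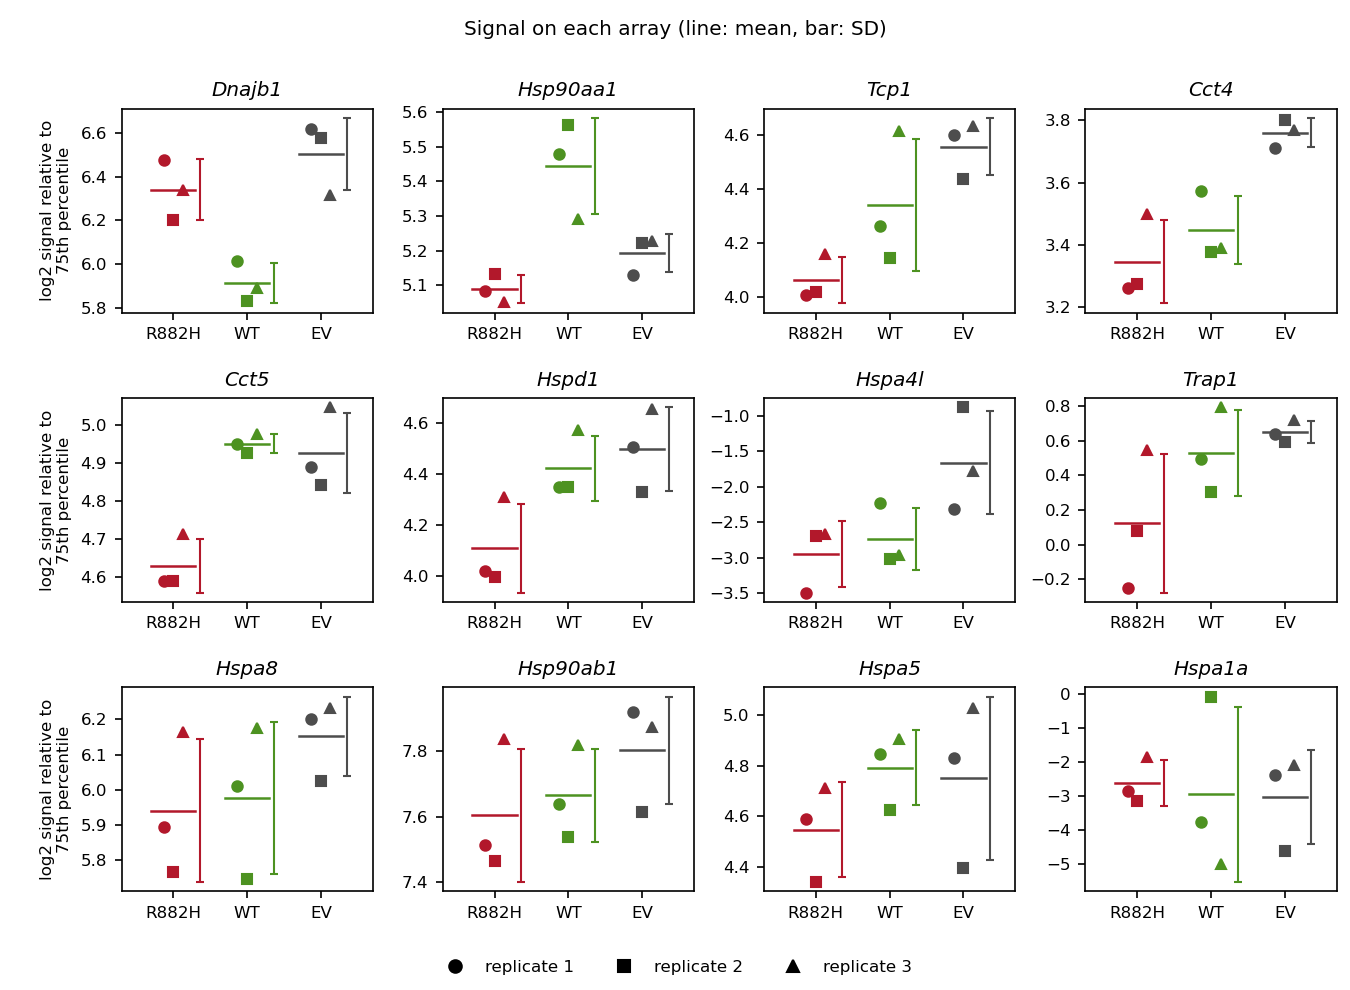
Signal of 12 chaperone genes on each array (log2 above the 75th percentile of the array), in R882H, WT and EV cells from left to right; symbols give the replicate number, lines the mean and bars the SD of 3 arrays. Tcp1, Cct4, Hspd1 and Trap1 lie lower on every R882H array than on any EV array, Dnajb1 lies lowest on the 3 WT arrays (5.83 to 6.01), and Hspa1a spreads widely in every group.

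R882H cells were set against WT cells to ask what differs between the mutant and the normal enzyme when both are added. Dnajb1 was higher in R882H cells, while Hsp90aa1, Cct5 and most other members read lower. Of the 35 members, 28 were lower, where 52.4% of all genes tested were lower. The median was -0.13 against -0.02 over all genes. In the brightest class 22 of 24 members were lower, where 62% of all its genes were. No member passed an adjusted p of 0.05 in limma (0% of all genes did). By unadjusted p under 0.05, 1 member was higher and 2 were lower, against 3.59% of all genes higher and 4.51% lower. That count of 3 was 0 without R882H replicate 1 or WT replicate 2 and 1 without R882H replicate 2 or WT replicate 1, and the median was -0.07 without WT replicate 3, and -0.21 without WT replicate 2 or without R882H replicate 3.

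Dnajb1 had the smallest p of the members, and R882H did not overlap with WT. It read 6.48, 6.20 and 6.34 in R882H cells and 6.01, 5.83 and 5.89 in WT cells. The R882H cells held 134% of WT signal, a difference of 0.43 ± 0.15 (SE) with a limma p of 0.0212 and an adjusted p of 0.551. On slide 2 alone, with 2 arrays of each group, it was 0.48. Under the authors' column names it was -0.07. It was the only member higher on every R882H array than on any WT array, a pattern that 6.68% of all genes tested showed.

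Hsp90aa1 lay the other way, reading 5.08, 5.13 and 5.05 in R882H cells and 5.48, 5.56 and 5.29 in WT cells. The difference was -0.36 ± 0.14 (SE), or 78.2% of WT signal, with a limma adjusted p of 0.571, and -0.32 within slide 2. Cct5 was tight in both groups, at 4.59, 4.59 and 4.71 in R882H cells and 4.95, 4.93 and 4.98 in WT cells. Its difference was -0.32 ± 0.13 (SE), with a limma adjusted p of 0.60, and -0.36 within slide 2. Hspd1 read 4.02, 4.0 and 4.31 in R882H cells against 4.35, 4.35 and 4.57 in WT cells. No overlap remained between those groups, and the difference was -0.31 ± 0.16 (SE) with a limma adjusted p of 0.631. Dnajb6, an anti-aggregation J protein, and Chordc1, an HSP90 cochaperone, made up the 5 members that were lower without overlap, where 8.89% of all genes tested were. In the brightest class this held for 4 of the 24 members and for 379 of all 2624 genes. For Dnajb6, 2 of 3 further probes differed the opposite way.

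All 7 CCT subunits and all 4 mitochondrial chaperones on the list were again lower, with medians of -0.21 and -0.25. The CCT median was -0.13 without WT replicate 3 and -0.33 without WT replicate 2, and the mitochondrial median was -0.16 without WT replicate 3. In the other classes, 2 of 2 cytosolic HSP90 genes, 4 of 5 cytosolic HSP70 and HSP110 genes, 3 of 4 ER genes, 3 of 5 cochaperones, 4 of 6 J proteins and 1 of 2 heat shock factors were lower. Hspa5 averaged 4.55 ± 0.19 in R882H cells and 4.79 ± 0.15 in WT cells, and Hsf1 averaged 1.86 ± 0.29 in R882H cells and 1.86 ± 0.21 in WT cells (SD, n = 3 each). Within slide 2 the member median was -0.24, with 27 of 35 lower, where 53.3% of all genes were lower. Slide 2 is the only slide with both groups, so the fit with slide as a block returns that same value and is no second result. Under the authors' column names the member median was -0.01 with 20 of 35 lower. Hsp90aa1, Cct5 and Hspd1 then differed by -0.13, -0.10 and -0.05.

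WT cells were set against EV cells to ask how added normal enzyme compares with the vector alone. The member of smallest p was Dnajb1, at 6.01, 5.83 and 5.89 in WT cells and 6.62, 6.58 and 6.32 in EV cells, with no overlap. The WT cells held 66.4% of EV signal, a difference of -0.59 ± 0.15 (SE) with a limma p of 0.00394 and an adjusted p of 0.758. The difference was -0.49 on slide 1, which holds 1 WT and 3 EV arrays, and -0.20 under the authors' column names. As the WT arrays are shared with the comparison above, the 2 Dnajb1 differences are not independent.

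Hspa4l read -2.23, -3.01 and -2.96 in WT cells and -2.32, -0.88 and -1.78 in EV cells, with overlap at WT replicate 1. Its difference was -1.07 ± 0.40 (SE), with a limma adjusted p of 0.786, and -0.68 without EV replicate 2 and -0.57 with slide as a block. Cct4 read 3.57, 3.38 and 3.39 in WT cells and 3.71, 3.80 and 3.77 in EV cells, without overlap. It differed by -0.31 ± 0.14 (SE). Hsp90aa1 was the only member higher on every WT array than on any EV array, at 5.48, 5.56 and 5.29 in WT cells and 5.13, 5.22 and 5.23 in EV cells, where 5.53% of all genes tested were. It differed by 0.25 ± 0.14 (SE). Over all 35 members, 25 were lower in WT cells, where 49% of all genes were, and the median was -0.13 against 0.01. No member passed an adjusted p of 0.05 in limma (0% of all genes did). By unadjusted p, 2 were lower and 0 higher, against 2.54% and 3.4% of all genes, and 4 were lower without overlap, against 4.5%. The count of 2 was 1 without WT replicate 2 or EV replicate 2, and the median was -0.04 without WT replicate 2, -0.09 without EV replicate 3 and -0.21 without WT replicate 3.

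**Figure D3:**
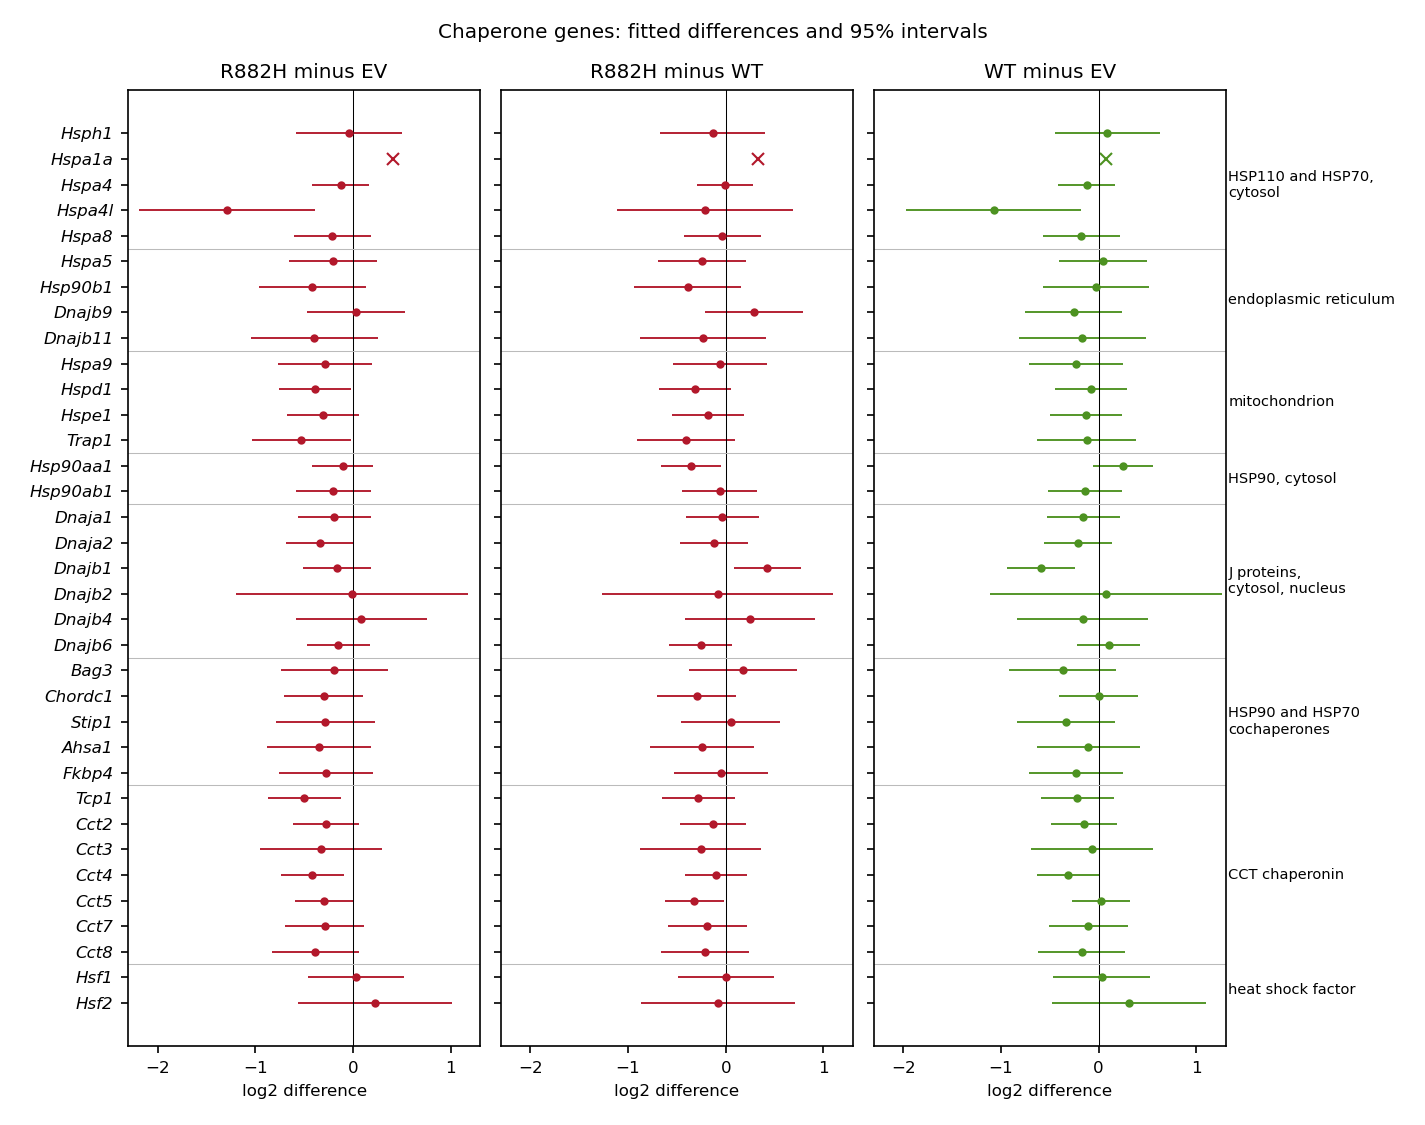
Fitted log2 differences of the 35 tested members with 95% intervals, grouped by role from top to bottom, for R882H minus EV, R882H minus WT and WT minus EV; Hspa1a is a cross without an interval because its interval, with an SE of 1.17, runs past the axis. The CCT and mitochondrial genes lie left of 0 in the first 2 panels, and Dnajb1 lies right of 0 against WT and left of 0 for WT against EV.

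The replicates numbered 3 stood high for many single members. The mean deviation of the 35 members from their 9-array means was -0.18, -0.21 and 0.03 on the R882H arrays, 0.01, -0.02 and -0.01 on the WT arrays and 0.16, 0.00 and 0.21 on the EV arrays. These means include Hspa1a, near the limit of detection, which read -3.76, -0.07 and -5.00 on the WT arrays and -4.59 on EV replicate 2. The closeness of the WT means, and the place of R882H replicate 3 above 1 EV array, depend on that gene. Replicate 3 was the highest array of its group in all 3 groups for 16 of 35 members, among them Hspa5, Hspa8, Hspd1, Hspe1, Hsp90b1, Tcp1 and Cct5, where 11.3% of all genes tested showed this. As classes, the CCT, mitochondrial, cochaperone and ER members had replicate 3 highest in all 3 groups, and the other 4 classes did not. WT replicate 3 was the lowest WT array for cytosolic HSP70 and HSP110 genes (-0.45) and for J proteins (-0.32), and EV replicate 3 the lowest EV array for the heat shock factors (-0.48). The first of these classes holds Hspa1a, at -5.00 on that array. Without the arrays numbered 3, the member median was -0.28 for R882H against EV cells, -0.16 for R882H against WT cells and -0.16 for WT against EV cells.

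Markers of the granulocyte-monocyte lineage were highest at replicate 3 in each group, as were the CCT, mitochondrial, cochaperone and ER members. The remaining member classes were not. The order of replicates 1 and 2 differed: among WT arrays, replicate 1 was lowest for the markers and replicate 2 for those CCT, mitochondrial, cochaperone and ER members. All 5 (Mpo, Elane, Prtn3, Ctsg and Ms4a3) were lower in R882H than in EV cells and in WT cells, with medians of -1.41 and -1.26 and no adjusted p under 0.05 in limma. Their mean deviation was -1.42, -1.29 and 0.17 on the R882H arrays, -0.36, -0.14 and 1.45 on the WT arrays and 0.42, -0.68 and 1.86 on the EV arrays, highest at replicate 3 in each group. Megakaryocyte markers ran the opposite way, at 0.90, 1.12 and 0.23 on R882H, -0.27, -0.06 and -0.57 on WT and 0.25, -0.28 and -1.33 on EV arrays, with 5 of 5 higher in R882H than in EV cells. Erythroid and stem cell markers were also higher in R882H than in EV cells, for 4 of 4 and 5 of 5 tested. B lineage markers were higher for 3 of 4 tested, at 0.20, 0.85 and 1.37 on R882H, -0.33, -0.76 and 0.63 on WT and -0.68, -0.39 and -0.91 on EV arrays. T lineage markers were higher for 2 of 2 tested and macrophage markers for 3 of 5. Of 8 immediate early genes, which respond to cell handling, 6 were higher in R882H than in EV cells, with means of 0.02 to 0.41 on R882H, -0.34 to 0.08 on WT and -0.69 to 0.13 on EV arrays. The part of cell composition, handling and slide in the chaperone differences was not tested. In bulk RNA a smaller share of cells of 1 type and less RNA per cell cannot be told apart.

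**Figure D4:**
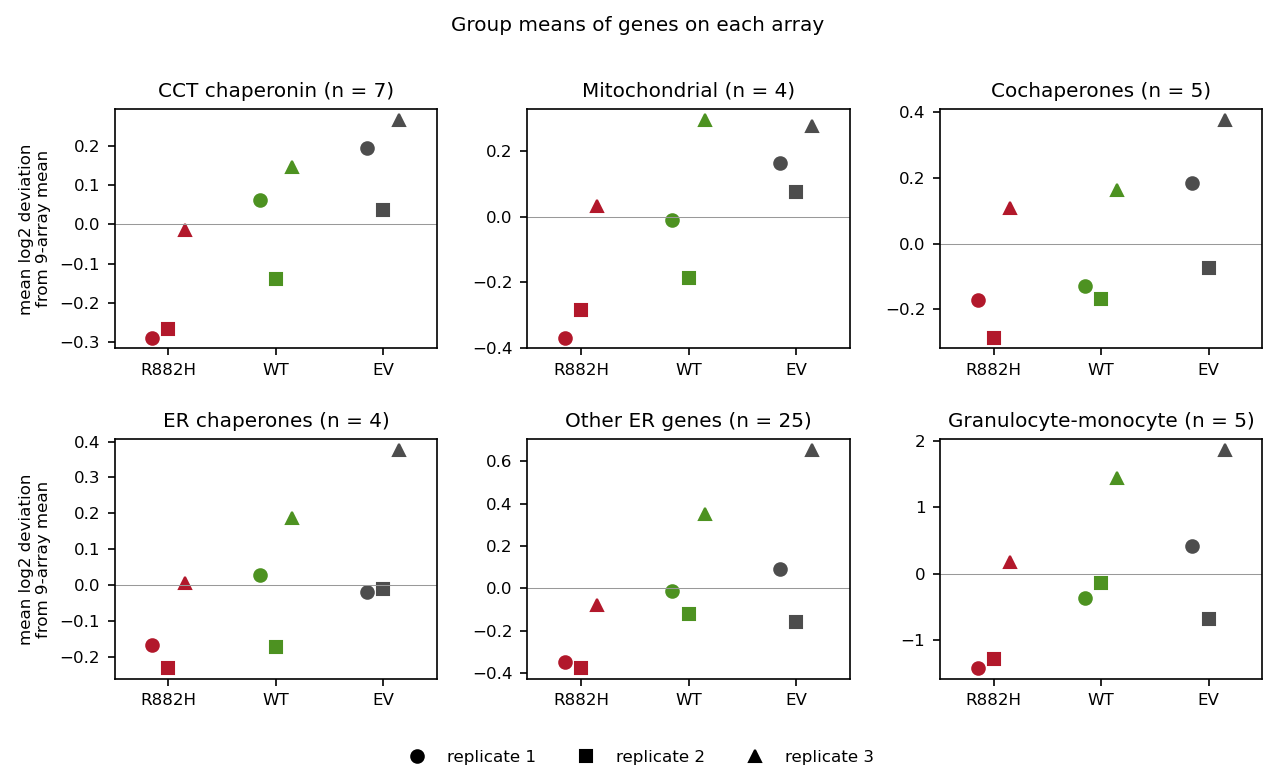
Mean log2 deviation from the 9-array mean on each array, for the CCT, mitochondrial, cochaperone and ER classes of members, 25 other ER genes and 5 granulocyte-monocyte markers, in R882H, WT and EV cells from left to right; symbols give the replicate number. Replicate 3 is the highest of its group in these 6 panels, which leave out the 4 member classes without that pattern, and the marker panel spans -1.42 to 1.86.

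A list of 95 further genes of protein folding and quality control was read in the same fits, and 90 of them were tested. In R882H against EV cells, 75 of the 90 were lower with a median of -0.22, where 53.2% of all genes were lower. At unadjusted p under 0.05, 10 were lower and 0 higher, against 3.77% and 5.37% of all genes. Those of ER folding and the unfolded protein response were lower most often, 24 of 25 with a median of -0.50, and none passed an adjusted p of 0.05 in limma. That median was -0.27 without EV replicate 3, -0.35 without the arrays numbered 3 and -0.05 under the authors' column names. The ER list averaged -0.35, -0.38 and -0.08 on the R882H arrays, -0.01, -0.12 and 0.35 on the WT arrays and 0.09, -0.16 and 0.65 on the EV arrays. WT replicate 3 and EV replicate 3 were its 2 highest arrays, as for the granulocyte-monocyte markers. Mitochondrial proteostasis genes were lower for 10 of 12, with a median of -0.21.

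Canx, which encodes the ER lectin chaperone calnexin, read 5.34, 5.33 and 5.42 in R882H cells, 5.96, 6.10 and 5.87 in WT cells and 5.79, 5.86 and 6.04 in EV cells. R882H lay below both other groups without overlap, by -0.61 ± 0.14 (SE) against WT cells (limma adjusted p = 0.401) and -0.53 ± 0.14 (SE) against EV cells (limma adjusted p = 0.450). Cct6a, the zeta subunit of the CCT ring and not on the list of 37, read 3.21, 2.83 and 3.30 in R882H cells and 3.82, 3.46 and 3.92 in EV cells, a difference of -0.62 ± 0.19 (SE). Cct6b, a further CCT gene read at low signal, went the other way. It averaged -2.69 in R882H, -3.04 in WT and -3.21 in EV cells, with overlap. Dnajc10, an ER J protein that reduces disulphides, averaged 1.58 in R882H, 2.00 in WT and 2.09 in EV cells, differing by -0.42 ± 0.16 (SE) from WT and -0.50 ± 0.16 (SE) from EV. Pdia6, an ER disulphide isomerase, read 3.02, 3.02 and 3.70 in R882H cells and 4.03, 3.85 and 4.38 in WT cells, a difference of -0.84 ± 0.28 (SE).

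In R882H against WT cells, 62 of the 90 further genes were lower with a median of -0.12, where 52.4% of all genes were lower, and the median was -0.19 without WT replicate 2 and also without R882H replicate 3. At unadjusted p under 0.05, 7 were lower, against 4.51% of all genes. Of the 25 ER genes, 21 were lower with a median of -0.39, which was -0.17 without WT replicate 3. In WT against EV cells, 66 of 90 were lower with a median of -0.11, where 49% of all genes were lower. That median was -0.22 without EV replicate 2, -0.06 without EV replicate 3 and -0.04 without WT replicate 2. Ppid, a cyclophilin that works as an HSP90 cochaperone, read 3.93, 4.06 and 3.63 in WT cells and 3.48, 3.49 and 3.41 in EV cells, a difference of 0.41 ± 0.16 (SE). Pfdn1, a subunit of prefoldin, which hands actin and tubulin to CCT, read 0.03, -0.10 and 0.27 in WT cells and 0.58, 0.50 and 0.53 in EV cells. It differed by -0.47 ± 0.19 (SE). Atf6, a sensor of ER stress on a dim probe, averaged -2.49 in WT and -1.83 in EV cells, with overlap.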

How the data were processed

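The authors deposited 1 scanner output per array: linear spot intensity, background-subtracted and spatially detrended by Agilent Feature Extraction 10.10.1.1, per the file headers. Their deposited value table holds log2 values centred on each probe's median over the 9 columns, for 41854 probes shared with the arrays, and the sources used here do not say how it was made.

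Control spots and 154 to 184 outlier spots per array were left out, no spot was saturated, and spots of a probe were averaged. Levels are log2 of the processed intensity less the 75th percentile of the array over 55681 probes. RefSeq accessions gave a symbol to 27235 probes, and 28446 had none. The brightest probe stood for a gene, and detected probes of members that disagreed in sign are counted in the text for R882H against EV cells. For R882H against WT cells, probes of Hsph1, Hspa4, Dnaja1 and Dnajb6 disagreed. For WT against EV cells, probes of Hsph1, Hspa4, Dnaja1, Dnaja2 and Dnajb6 did. Differences were fitted with limma 3.58.1 (lmFit and eBayes, R 4.3.3) on all 9 arrays, with 6 residual and 2.82 prior degrees of freedom and Benjamini-Hochberg adjustment over 13120 genes; the scripts were tested on simulated data. The number of arrays limits the precision.

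The members, gene lists, rule for named genes and alternatives were chosen with earlier results of these data known. Named genes were a panel of 12 members, the 4 members of smallest p per comparison and the 3 of smallest p among the other proteostasis genes; those described beside them in the text are class examples chosen after their values were seen. Deviations of same-numbered WT and EV arrays correlated at 0.116, 0.222 and 0.325, and these numbers were taken as pairs, a judgement from the data and not the labels. The printed values come from the fit that ignores this pairing, and a fit blocked on the number was an alternative. Alternatives were the filter on dim probes, 3 other normalizations, normexp background correction, the mean of probes, slide or replicate number as a block, 2 groups per fit, the value table and arrays left out. Some marker genes are not reported here.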

Additional observations from a re-analysis of the deposited data

How the results depend on the processing

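No member passed an adjusted p of 0.05 in limma under any alternative run, and the member median stayed below 0 in all 3 comparisons under all of them. For R882H against EV cells it was -0.159 with quantile normalization, -0.174 with cyclic loess, -0.432 with the array median as the scale and -0.0737 with the authors' value table, and -0.338 to -0.158 with single arrays left out. The array median as the scale moved the median of all genes to -0.18 for R882H against EV and -0.11 for R882H against WT cells, so that relative to all genes the members lay at -0.25 and -0.11. For R882H against WT cells the member median was -0.0116 with the value table, -0.241 with slide as a block and -0.211 to -0.0704 with single arrays left out, and for WT against EV cells -0.211 to -0.0426 with single arrays left out. Members at unadjusted p under 0.05 in R882H against EV cells numbered 3 without a filter on dim probes, 11 with the array median, 1 with slide as a block, 3 with only the 2 groups fitted, 1 with the value table and 2 to 7 with single arrays left out. In R882H against WT cells they numbered 1 with quantile normalization, 1 with cyclic loess, 1 with slide as a block, 1 with only the 2 groups fitted, 0 with the value table, 1 without the arrays numbered 3 and 0 to 4 with single arrays left out. In WT against EV cells they numbered 0 with slide as a block, 0 with the value table, 1 without the arrays numbered 3 and 1 to 3 with single arrays left out. With the replicate block they numbered 10, 5 and 3, and the block changed no call by adjusted p. Same-numbered arrays of R882H and EV cells correlated at 0.0884, 0.198 and 0.279 and those of R882H and WT cells at 0.0714, 0.137 and 0.239. Those numbers were not taken as pairs. The lowest value of each lay under the 0.116 of WT and EV replicate 1, which is itself a value of these data and not a separate cutoff. The other values lay above 0.116, so the line between them is not sharp.

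Apart from that of Dnajb1, the named differences that changed sign were smaller than their SE. Dnajb1 in R882H against WT cells was -0.0654 with the value table. In R882H against EV cells, Bag3 was 0.185 with the value table and -0.381 to 0.0528 with single arrays left out. Hsf1 was -0.122 with the array median, -0.168 with slide as a block, -0.0295 without the arrays numbered 3 and -0.130 to 0.196 with single arrays left out. Hsp90aa1 was 0.0261 with quantile normalization and 0.0104 with cyclic loess. Hspa1a was -0.0411 with normexp, -1.21 with slide as a block and -0.383 to 0.870 with single arrays left out. Hsph1 was 0.0794 with quantile normalization, 0.0668 with cyclic loess, 0.0634 with the value table, 0.00763 without the arrays numbered 3 and -0.215 to 0.203 with single arrays left out. Where an alternative left a group with fewer arrays, its spread was assumed to be that of the others. In the value table, 7 of 9 columns match a different sample's array, 4 of them that of another group. Its differences therefore compare other sets of arrays than the main fit does, and are not a change of processing alone. The cause of the other shifts was not tested. Signal over background limits Hspa1a, Hspa4l and Hspb1 most.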
